A study of Mus musculus with 19 samples.

Results

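Purkinje cells, the output neurons of the cerebellar cortex, were compared with Camk2a neurons, the excitatory projection neurons of the neocortex, by the microRNAs (miRNAs) bound to Argonaute 2 (Ago2) in each. The comparison used the 3 Purkinje and 3 Camk2a libraries, 6 of the 19 libraries of the study. They were chosen as the projection neurons of the 2 brain regions, precipitated with the same antibody. In this study a Myc-tagged Ago2 was precipitated from a defined class of neuron in mouse brain lysate, and the small RNA that came with it was sequenced. The other 13 libraries were whole cerebellum, whole neocortex and the Gad2, PV and SST classes of neocortical interneuron. Every library came from mice at postnatal day 56. The Purkinje libraries came from cerebellum of mice on a C57BL/6 & black swiss background, with 3 tissues pooled for each library, and the Camk2a libraries from neocortex of mice on a C57BL/6 & BALB/c background, with 1 tissue for each. Both were precipitated with an anti-myc antibody. Cell class, tissue, strain and pooling therefore change together between the groups, and their parts in a difference cannot be told apart. The labels do not name the Cre driver of either class and do not say that replicates are separate animals, so a p-value measures the spread between these libraries only.

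A miRNA is a short RNA that guides an Argonaute protein to messenger RNAs and lowers their stability or translation. Bases 2 to 8 of the mature strand, the seed, do most of the pairing, so miRNAs that share a seed share many targets and are grouped as a family. Each hairpin precursor gives a 5′ and a 3′ arm, of which 1 is usually loaded far more often, and the less used arm is marked here with a star where the files do so. Purkinje cells are large GABAergic neurons that carry the sole output of the cerebellar cortex, while neocortical Camk2a neurons are glutamatergic.

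The mature sequences that carry the differences are shown first, with the seed in capitals, from RefSeq (GRCm38.p6). Of the 528 names in the table, 200 could be matched to this source. The first set holds 7 of the largest falls in Purkinje cells, and miR-221 and miR-222 share a seed.
miR-222: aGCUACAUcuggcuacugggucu
miR-137: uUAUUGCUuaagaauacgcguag
miR-221: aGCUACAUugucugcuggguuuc
miR-335-5p: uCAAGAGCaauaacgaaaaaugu
miR-128: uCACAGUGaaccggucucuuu
miR-129-2-3p: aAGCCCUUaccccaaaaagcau
miR-218: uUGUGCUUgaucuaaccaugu

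A second set was higher in Purkinje cells and abundant there, and no 2 of its members share a seed.
miR-138: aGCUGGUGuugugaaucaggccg
miR-433: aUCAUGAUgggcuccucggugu
miR-652: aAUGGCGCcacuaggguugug
miR-34a: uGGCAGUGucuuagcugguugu

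The third set holds families whose members share a seed but did not change alike. In the let-7 family miR-98 and let-7i were higher in Purkinje cells and let-7b and let-7c lower, and in the miR-29 family miR-29a was lower and miR-29b higher.
let-7b: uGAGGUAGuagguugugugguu
let-7c: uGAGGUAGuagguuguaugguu
let-7i: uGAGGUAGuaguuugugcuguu
miR-98: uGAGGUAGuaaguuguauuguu
miR-29a: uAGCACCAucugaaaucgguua
miR-29b: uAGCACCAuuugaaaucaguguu
miR-29c: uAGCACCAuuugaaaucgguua

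The last set holds the 6 members of 1 seed family. miR-15a, miR-16, miR-195 and miR-497 were lower in Purkinje cells, and miR-15b and miR-322 higher.
miR-15a: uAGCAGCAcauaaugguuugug
miR-16: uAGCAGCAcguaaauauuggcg
miR-195: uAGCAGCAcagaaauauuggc
miR-497: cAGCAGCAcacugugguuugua
miR-15b: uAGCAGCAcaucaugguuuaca
miR-322: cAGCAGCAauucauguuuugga

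Levels are given in RPM, the reads of a name per 1000000 miRNA reads of its library. They are relative, so a rise of 1 abundant miRNA lowers the values of the others. For a whole-tissue library, fewer cells of a type and less RNA per cell cannot be told apart. The Purkinje libraries held 2063132 to 3378889 miRNA reads and the Camk2a libraries 10309027 to 12824712, so 3 reads are worth 0.888 to 1.45 RPM in the first and 0.234 to 0.291 RPM in the second. Between 445 and 447 names were detected in the Purkinje libraries and 492 to 498 in the Camk2a libraries. The 10 most abundant names held 67.9% to 68.6% and 68.7% to 71.0% of the reads. Each of the 6 libraries was most like another library of its own group. No messenger RNA was measured, so the identity of the cells was checked by miRNAs of other cell types only.

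The 2 classes of projection neuron differed in most of their miRNAs. Of 522 miRNAs tested, 298 (57.1%) differed at an adjusted p below 0.05 by limma, which is what called means below. In Purkinje cells 128 (24.5%) were higher and 170 (32.6%) lower. At least 2-fold were 253 (48.5%), of which 103 (19.7%) were higher and 150 (28.7%) lower, and at least 4-fold were 32 that rose and 88 that fell. In 322 names (61.7%) the 3 Purkinje values did not overlap the 3 Camk2a values. The median log2 change over all 522 was -0.12, and 0.00 with names at 0 in a whole group set to the 3-read limit. At the lower Purkinje depth 43 names were at 0 in all Purkinje libraries, beside 13 in all Camk2a libraries. Some of these 43 are among the falls of at least 4-fold. Of the 170 names with a mean of at least 100 RPM, 132 were called, 64 higher and 68 lower.

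**Figure D1:**
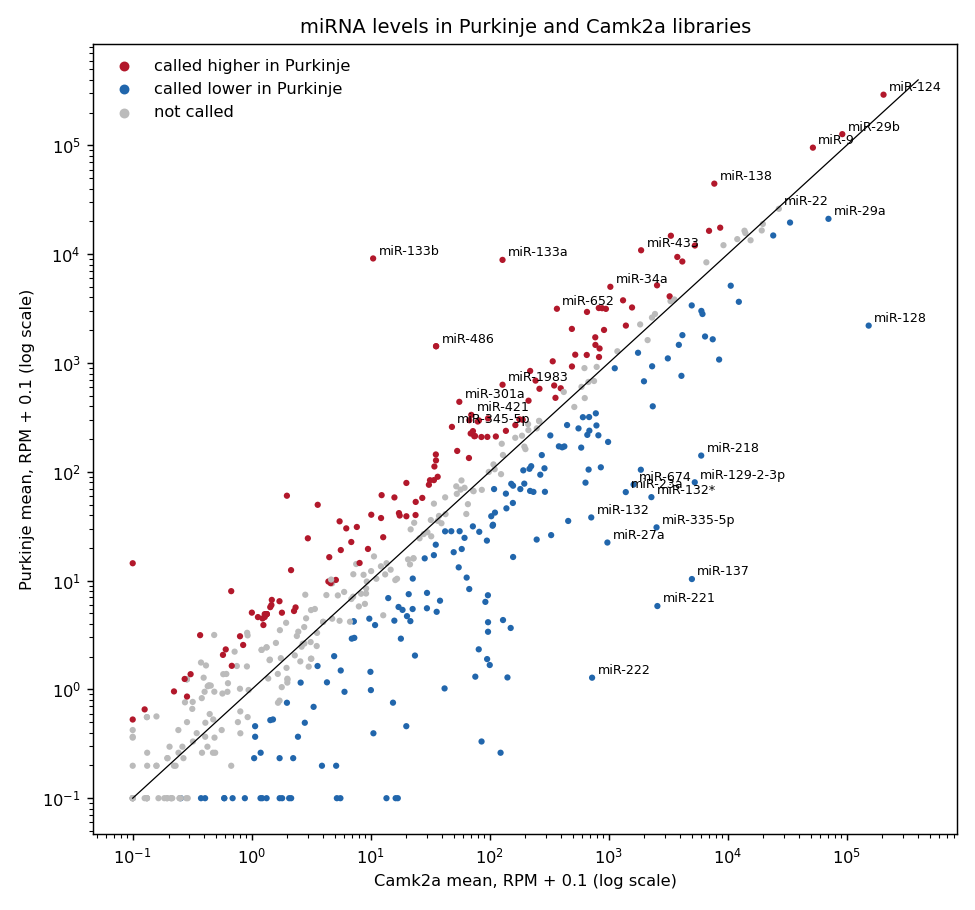
Mean level of each tested miRNA in Camk2a (horizontal) and Purkinje libraries (vertical), in RPM + 0.1 on log axes, with the line of equality. Red points were called higher in Purkinje cells (128), blue points lower (170) and grey points were not called. The blue points far below the line include miR-222 and the far more abundant miR-128.

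Most of the 10 miRNAs of largest mean level were abundant in both pools, and miR-128 was the one of largest change. miR-124, the most abundant neuronal miRNA, took 29.3% ± 0.84 (SD, n = 3) of Purkinje reads and 20.5% ± 1.99 (SD, n = 3) of Camk2a reads. Its levels were 285643, 301890.0 and 290083 RPM in Purkinje replicates 1, 2 and 3 and 184225, 224073 and 205423 RPM in Camk2a replicates 1, 2 and 3 (log2 change 0.52 ± 0.16 (SE), adjusted p = 0.0077). All 3 Purkinje libraries stood above all 3 Camk2a libraries.

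miR-9, a regulator of neural progenitors that stays high in adult neurons, was 1.83-fold higher in Purkinje cells. The Purkinje libraries held 101603, 97849 and 86611 RPM and the Camk2a libraries 53410.2, 52386 and 50619 RPM (log2 change 0.87 ± 0.14 (SE), adjusted p = 1.86e-05). Its other arm, miR-9*, moved less: 14460.5, 12638 and 13197 RPM against 16428, 14684 and 15716 RPM (log2 change -0.22 ± 0.13 (SE), adjusted p = 0.153). miR-22 and miR-29c overlapped between the groups and were not called, with log2 changes of -0.05 and -0.07. miR-26a and let-7c were lower in Purkinje cells by 1.69-fold and 1.63-fold (adjusted p = 0.00236 and 0.00119), with no overlap between the groups in either.

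miR-128 was the main exception. This neuronal miRNA, known to restrain neuronal excitability, is made from 2 hairpins, in an intron of R3hdm1 (chr1:128202361-128202430) and an intron of Arpp21 (chr9:112118636-112118711, GRCm38). It stood at 170460.0, 146682 and 143241 RPM in the Camk2a libraries, where it was the second most abundant name, and at 2169, 2438 and 2011 RPM in the Purkinje libraries. That is 15.3% ± 1.48 (SD, n = 3) of the Camk2a pool against 0.221% ± 0.0216 (SD, n = 3) of the Purkinje pool, 69.6-fold less (log2 change -6.12 ± 0.19 (SE), adjusted p = 2.94e-16). Both star arms fell as well, miR-128-1* from a mean of 15.3 to 0.655 RPM and miR-128-2* from 3.8 to 0.0987 RPM, the latter 1 read in all. These 2 arms were named after their values were seen, as hairpin partners.

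The largest falls took several miRNAs of the Camk2a pool to near the detection limit in Purkinje cells. miR-222 had 3 reads in each Purkinje library, at 1.45, 1.2 and 0.888 RPM, against 618, 834 and 727 RPM in the Camk2a libraries (log2 change -9.16 ± 0.29 (SE), adjusted p = 2.94e-16). From the summed reads, the Camk2a level was 648 (95% interval 341 to 1417) times the Purkinje level, an exact interval that covers counting error only. miR-221, its neighbour on chromosome X, was at 7.75, 5.61 and 3.85 RPM against 3065, 2447 and 2199 RPM (log2 change -8.83 ± 0.37 (SE), adjusted p = 2.70e-14). The hairpins lie at chrX:19146294-19146388 and chrX:19146893-19146971, on the minus strand and outside annotated host genes. This pair is best known for holding down the cell-cycle inhibitor p27Kip1. Both star arms were at 0 in every Purkinje library and at 4.46, 6.08 and 5.86 RPM (miR-221*) and 13.4, 13.3 and 13.7 RPM (miR-222*) in the Camk2a libraries.

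miR-137, a synaptic miRNA whose human locus is associated with schizophrenia, fell 489-fold. The Purkinje libraries held 11.1, 8.01 and 11.5 RPM and the Camk2a libraries 4991, 4469 and 5579.5 RPM (log2 change -8.93 ± 0.23 (SE), adjusted p = 1.30e-17). Its hairpin lies at chr3:118433857-118433929, in an exon of the noncoding transcript Gm26871. miR-335-5p, from an intron of the imprinted gene Mest (chr6:30741299-30741396), was at 30.1, 30.8 and 31.4 RPM in Purkinje cells, nearly the same in all 3 libraries. In Camk2a neurons it was at 2685, 1876 and 3026 RPM (log2 change -6.33 ± 0.20 (SE), adjusted p = 2.94e-16).

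miR-218 comes from introns of the axon guidance genes Slit2 (chr5:48223942-48224051) and Slit3 (chr11:35616816-35616925). It had 142, 167 and 114 RPM in Purkinje cells and 5576, 6714 and 5721 RPM in Camk2a neurons (log2 change -5.43 ± 0.20 (SE), adjusted p = 1.92e-15). Only the star arm tells the 2 hairpins apart: miR-218-2* was at 16.4, 15.1 and 16.8 RPM in the Camk2a libraries and miR-218-1* at 1.26, 1.4 and 1.04 RPM, and both were at 0 in all Purkinje libraries. The hairpins of miR-129 did not fall alike. miR-129-2-3p had 104, 74.1 and 62.2 RPM in Purkinje cells and 6216, 5056 and 4625 RPM in Camk2a neurons (log2 change -6.07 ± 0.21 (SE), adjusted p = 8.97e-16). miR-129-1-3p, named after its values were seen, was at 294, 329 and 183 against 436, 535 and 372 RPM (log2 change -0.76 ± 0.28 (SE), adjusted p = 0.0259). In Camk2a neurons the 2-3p strand was thus the more abundant of the pair and in Purkinje cells the 1-3p strand was, in every library.

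A pair below the abundance rule, named after its values were seen, was close to undetected in Purkinje cells. miR-490-5p and miR-490-3p are the arms of 1 hairpin in an intron of Chrm2, the gene of a muscarinic acetylcholine receptor (chr6:36421742-36421825). The 5p arm gave 1 read in the 3 Purkinje libraries together and 116, 115 and 139 RPM in the Camk2a libraries, and the 3p arm gave 2 reads and 84.5, 71.7 and 100.1 RPM. From the summed reads the Camk2a level was 977 (95% interval 175 to 38580.0) times higher for the 5p arm and 336 (95% interval 92.8 to 2772) times for the 3p arm.

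The other miRNAs among the 12 largest falls with a mean of at least 100 RPM were miR-27a, miR-132*, miR-23a, miR-674 and miR-132. miR-674 was at 70.8, 62.1 and 95.9 RPM in Purkinje cells and 1536, 1834 and 1495 RPM in Camk2a neurons (log2 change -4.43 ± 0.19 (SE), adjusted p = 4.73e-14). The rest are described with their families below.

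**Figure D2:**
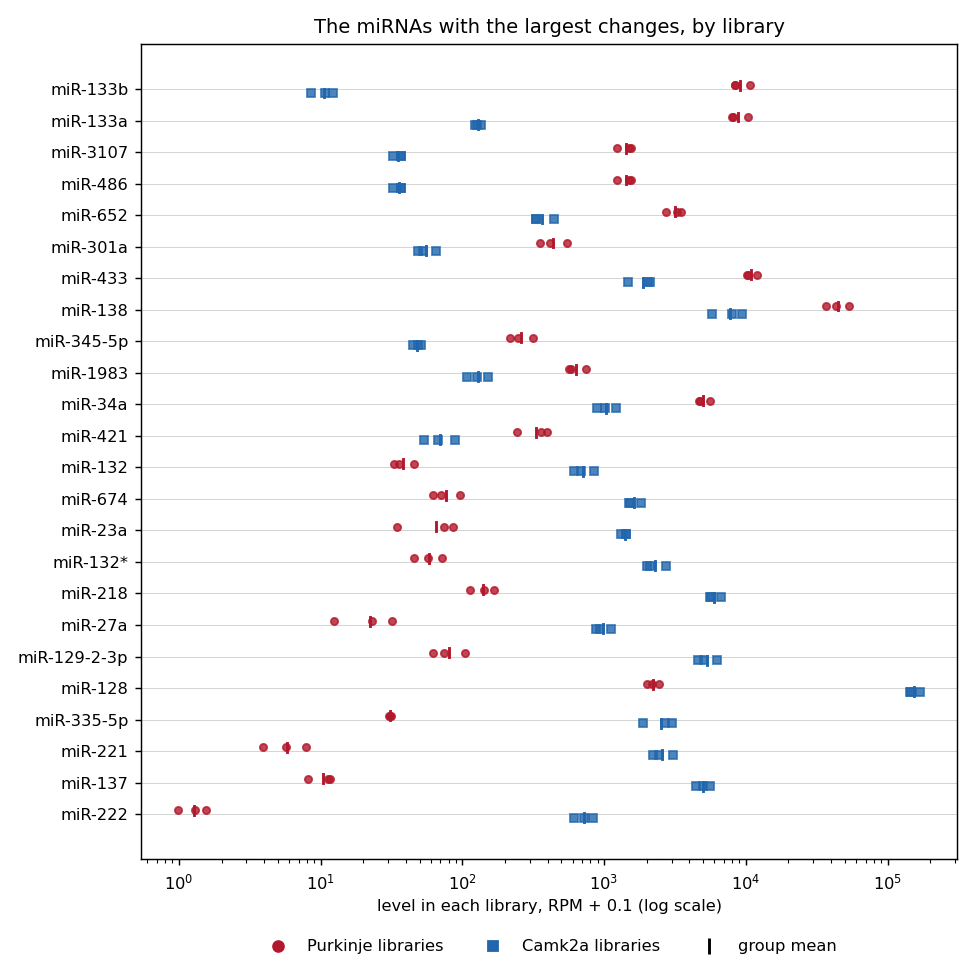
Level of the 12 miRNAs with the highest and the 12 with the lowest change in each Purkinje (red circles) and Camk2a library (blue squares), in RPM + 0.1 on a log axis, with group means as vertical bars (n = 3 libraries a group). In all 24 the groups stand apart, and miR-133b and miR-222 lie at the 2 ends.

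Apart from miR-133a, miR-133b and the signal shared by miR-486 and miR-3107, each of the 12 highest changes was smaller than each of the 12 lowest. miR-133b, best known from skeletal muscle and also described in midbrain dopamine neurons, had 8326, 10717 and 8376 RPM in Purkinje cells and 10.6, 12.1 and 8.51 RPM in Camk2a neurons (log2 change 9.77 ± 0.23 (SE), adjusted p = 2.87e-18). miR-133a had 8019.9, 10404 and 8169.8 RPM and 123, 136 and 126 RPM (log2 change 6.10 ± 0.17 (SE), adjusted p = 2.37e-17). The mature strands of these 2 names differ only at the 3′ end, and no source used here says how reads that match both were assigned, so the split between them is uncertain. miR-133b*, which belongs to 1 hairpin only, was at 11.1, 13.2 and 18.6 RPM in the Purkinje libraries and at 0 in every Camk2a library.

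The rest of the muscle list did not follow. miR-1, processed from the same transcripts as miR-133a, had 279.7, 283 and 243 RPM in Purkinje cells and 140.0, 172 and 181 RPM in Camk2a neurons (log2 change 0.71 ± 0.25 (SE), adjusted p = 0.0176). Without Purkinje replicate 2 or Camk2a replicate 1 that call was lost (adjusted p = 0.0505 and 0.0791). miR-499, of the myosin gene Myh7b, was lower in Purkinje cells, at 2.91, 3.2 and 2.37 against 22.2, 12.8 and 18.5 RPM (adjusted p = 4.09e-08). Of the 7 names of the list 4 were higher, 1 lower and 2 not called, beside 24.5% higher and 32.6% lower over all 522.

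miR-138, which limits the size of dendritic spines, was the most abundant of the strong rises. It reached 43287, 36716 and 53529 RPM in Purkinje cells, 4.45% ± 0.847 (SD, n = 3) of the pool, against 5803, 7978 and 9429 RPM in Camk2a neurons (log2 change 2.54 ± 0.23 (SE), adjusted p = 1.02e-08). Its hairpins lie at chr9:122682876-122682974 and chr8:94324311-94324381. The star arms, named after their values were seen, both rose, miR-138-1* from 12.1 to 37.5 RPM and miR-138-2* from 96.9 to 309.5 RPM on average (adjusted p = 0.0026 and 4.69e-07).

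miR-433 comes from the imprinted Dlk1-Dio3 region, antisense to Rtl1 (chr12:109591715-109591838). Its levels were 10277, 10374 and 11949 RPM in Purkinje cells and 1466, 2121 and 2041 RPM in Camk2a neurons (log2 change 2.55 ± 0.18 (SE), adjusted p = 1.87e-10). miR-34a, a target of p53, had 5625, 4766 and 4659.5 RPM and 887, 1008 and 1208 RPM (log2 change 2.28 ± 0.25 (SE), adjusted p = 1.17e-07). miR-652, from an intron of Tmem164 on chromosome X (chrX:142739000-142739097), had 2736, 3247 and 3469 RPM and 332, 442 and 329.5 RPM (log2 change 3.11 ± 0.18 (SE), adjusted p = 4.07e-12).

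Among the less abundant rises, miR-301a of an intron of Ska2 was 7.85-fold higher, at 545, 356 and 418 against 48.8, 52.3 and 65.5 RPM. miR-345-5p was 5.31-fold higher, miR-1983 4.93-fold and miR-421 4.76-fold, each with no overlap between groups and an adjusted p of at most 7.36e-07. miR-486 and miR-3107 had nearly identical values in every library and are taken as 1 signal, since both names can claim the same reads. That signal, known from red blood cells and muscle, stood at 1538, 1502 and 1236 RPM in Purkinje cells and 36.7, 32.5 and 37.1 RPM in Camk2a neurons (log2 change 5.32 ± 0.25 (SE), adjusted p = 1.84e-13).

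**Figure D3:**
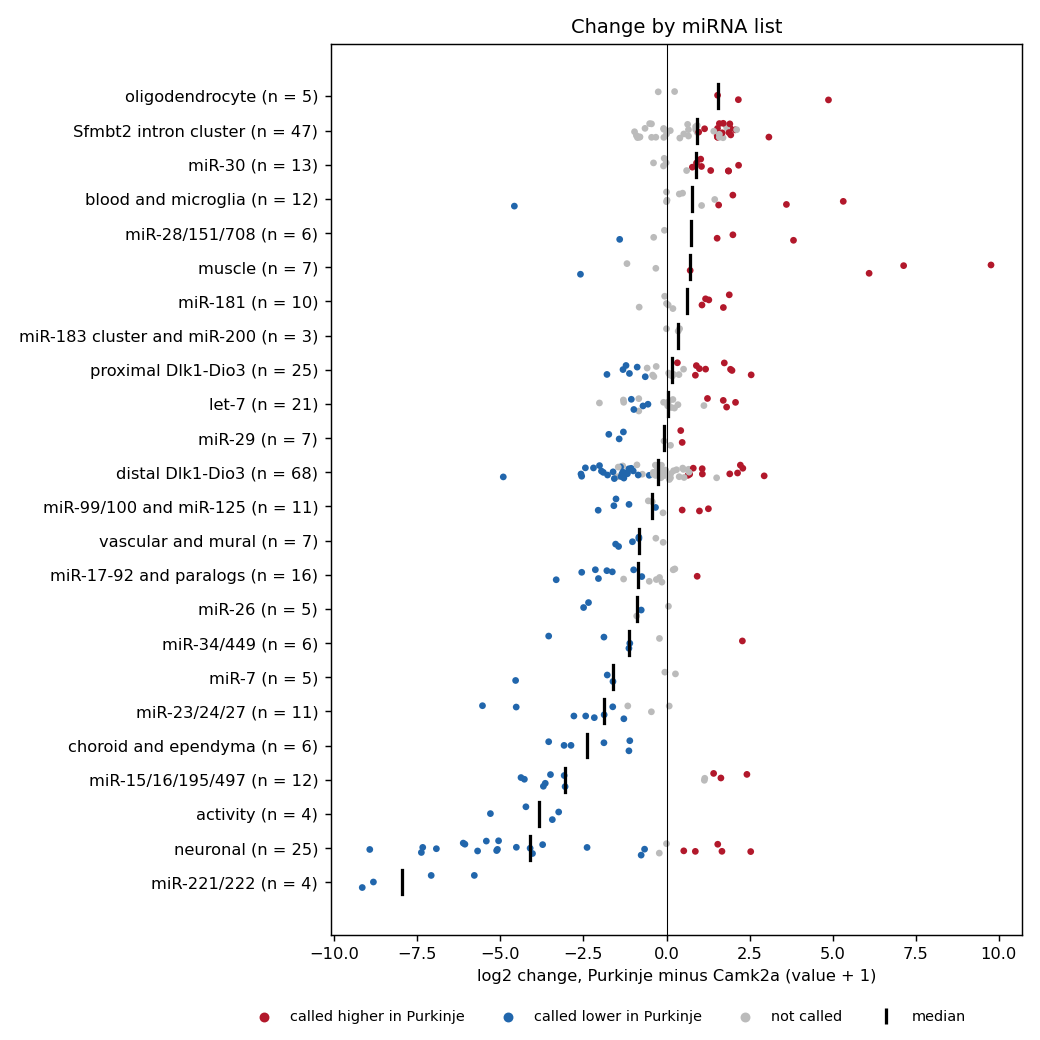
Log2 change (Purkinje minus Camk2a, deposited value + 1) of every tested member of each miRNA list, with the list median as a black bar and the number tested beside the name. The list of miR-221 and miR-222, the neuronal list and the activity list lie furthest left, with medians of -7.96, -4.11 and -3.84, and the oligodendrocyte list furthest right, at 1.54. With names at 0 in a whole group set to the 3-read limit, not drawn here, the medians of those furthest left were -6.02, -2.39 and -3.84.

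The counts of each list below are read beside the 24.5% higher and 32.6% lower of all 522 names. Of the 25 names of neuron-enriched miRNAs, 18 (72%) were lower in Purkinje cells, 5 (20%) higher and 2 not called, so the share lower was above that of all names and the share higher was close to it. The median log2 change of the list was -4.11 beside -0.12 over all 522 names. With names at 0 in a whole group set to the 3-read limit, the medians were -2.39 and 0.00. The summed level hardly moved, at 44.6% to 45.3% of reads in the Purkinje and 44.5% to 46.5% in the Camk2a libraries. The 5 higher names belonged to miR-124, miR-9 and miR-138, and the 18 lower ones to miR-128, miR-129, miR-135, miR-137, miR-153, miR-218 and the star arm of miR-124.

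Named after its values were seen, miR-153, from an intron of the secretory granule gene Ptprn2, fell from 1866 to 104 RPM on average (adjusted p = 8.30e-13). miR-135b had 0.969, 2 and 0.592 RPM in Purkinje cells, 9 reads in all, and 139.9, 142 and 142 RPM in Camk2a neurons. The ratio of summed reads was 124 (95% interval 65.5 to 272).

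The activity-regulated cluster of miR-132 and miR-212, which CREB induces in active neurons, was lower in Purkinje cells in all 4 of its strands. miR-132 was at 35.4, 45.6 and 32.9 RPM in Purkinje cells and 686, 615 and 843 RPM in Camk2a neurons (log2 change -4.23 ± 0.21 (SE), adjusted p = 7.19e-13). Its star arm was the more abundant strand in both, at 57.2, 72.1 and 45.9 and 2108, 2739 and 2022 RPM (log2 change -5.30 ± 0.25 (SE), adjusted p = 1.84e-13). miR-212-3p and miR-212-5p were lower by 10.8-fold and 9.49-fold. The summed level of the 4 strands was 0.0109% to 0.0157% of reads in Purkinje cells and 0.315% to 0.375% in Camk2a neurons.

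Seed families were summed next, since members with 1 seed share targets. Of 157 families built from names with a known sequence, 114 (72.6%) were called, 48 (30.6%) higher and 66 (42%) lower. Of these families 22 hold 2 names or more, and 19 of the 22 were called. The sums cover only names with a matched sequence, which hold 63.8% to 65.8% of reads in the Purkinje libraries and 73.6% to 77.8% in the Camk2a libraries.

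In the 2 most abundant families of several members, the sum stayed close while the members shifted against each other. The let-7 seed, GAGGUAG, had 98256, 95656 and 94342 RPM in the Purkinje libraries and 86998, 103220.0 and 91746 RPM in the Camk2a libraries (log2 change 0.04 ± 0.14 (SE), adjusted p = 0.833). Within it miR-98, from an intron of Huwe1, was 4.22-fold higher in Purkinje cells, at 2129, 2104 and 1939 against 425, 584 and 465 RPM. let-7i was 2.35-fold higher, at 15972, 15783 and 17443 against 6443, 7708 and 6809 RPM. In the other direction let-7b was 2.08-fold lower, at 4911, 4377 and 6111 against 9829, 11925 and 10138 RPM, and let-7c 1.63-fold lower, at 14274, 13265 and 17057 against 22462, 26172 and 23942 RPM. Over the 21 names of the list, star arms included, 4 were higher, 4 lower and 13 not called, and 7 were lower without Purkinje replicate 2.

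The miR-29 seed, AGCACCA, had 166490.0, 165561 and 168875 RPM in the Purkinje libraries and 197495, 164893 and 184729 RPM in the Camk2a libraries (log2 change -0.12 ± 0.13 (SE), adjusted p = 0.421). Members of this family rise as neurons mature and hold down pro-apoptotic genes. miR-29a was 3.33-fold lower in Purkinje cells, at 19865, 23138 and 20416 against 77108, 68703 and 65634 RPM (log2 change -1.74 ± 0.15 (SE), adjusted p = 4.06e-09). miR-29b was 1.39-fold higher, at 127415, 120157 and 133052 against 98916, 76374 and 101010.0 RPM (log2 change 0.47 ± 0.16 (SE), adjusted p = 0.0176). The rise of miR-29b was not called without Purkinje replicate 3 (adjusted p = 0.0525) or Camk2a replicate 2 (0.0986). Of the 7 names of the list 2 were higher and 3 lower, and 1 was higher when any library other than Purkinje replicate 1 was left out.

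The seed AGCAGCA, of a family that restrains cell-cycle genes and Bcl2, was lower in its sum, while 4 of its 6 members were lower and 2 higher. The sum had 1729, 1457 and 813 RPM in the Purkinje libraries and 10412, 9749 and 9693 RPM in the Camk2a libraries (log2 change -2.97 ± 0.21 (SE), adjusted p = 1.59e-11). miR-16, the main member, was at 1431, 1143 and 653 against 8866, 8288 and 8318 RPM, and the Purkinje libraries differed among themselves, with replicate 3 lowest. miR-15a was lower by 8.46-fold, miR-195 by 13.1-fold and miR-497 by 12.6-fold. The 2 higher members were named after their values were seen. miR-15b, from an intron of Smc4, was 3.11-fold higher, at 137, 139 and 60.1 against 40.6, 24.6 and 37.5 RPM. miR-322 was at 4.36, 7.61 and 2.96 against 1.36, 0.312 and 1.04 RPM, few reads in both groups (log2 change 2.42, adjusted p = 0.00126). Of 12 names in the list, star arms included, 3 were higher and 7 lower.

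The seed UCACAGU of miR-27a and miR-27b was 4.18-fold lower in Purkinje cells (log2 change -2.06 ± 0.18 (SE), adjusted p = 6.09e-10). The 2 clusters of this group differed in size of change. miR-27a and miR-23a, whose hairpins lie next to each other on chromosome 8 (chr8:84208672-84208758 and chr8:84208518-84208592), were at 22.8, 31.6 and 12.4 and 74.2, 86.5 and 34.3 RPM in Purkinje cells and at 934, 880.3 and 1116 and 1435, 1318 and 1429.6 RPM in Camk2a neurons. These are changes of 46.6-fold and 23-fold (adjusted p = 7.55e-13 and 3.00e-12). miR-27b of the chromosome 13 cluster was 3.67-fold lower, at 1764, 1979 and 1516 against 6786, 5249.6 and 7363 RPM. miR-24, which both clusters make, was 4.51-fold lower. Of the 11 names in the list 8 were lower and none higher.

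The miR-30 list went the other way, with 8 of 13 names higher in Purkinje cells and none lower. Its summed level was 3.59% to 4.52% of reads in Purkinje cells and 1.23% to 1.85% in Camk2a neurons. miR-30e, from an intron of Nfyc, led with 15897, 12069 and 16372 against 2968, 2627 and 4419 RPM (log2 change 2.17 ± 0.24 (SE), adjusted p = 1.63e-07). miR-30c was 3.66-fold and miR-30d 2.52-fold higher. The miR-181 list had 5 of 10 higher and none lower, with 1 lower without Purkinje replicate 3. miR-181a was at 12917, 9760.4 and 13376 against 4899.9, 4743 and 6290.2 RPM and miR-181c at 3173, 2426 and 3831 against 829.9, 922 and 1096 RPM (2.26-fold and 3.28-fold).

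Several smaller lists were lower in Purkinje cells in more names than they were higher. Of the 16 names of the miR-17-92 cluster and its paralogs 8 were lower and 1 higher, and the summed level was 0.0968% to 0.132% of reads against 0.0772% to 0.112%. miR-17 fell 5.87-fold, at 5.33, 8.41 and 2.66 against 28.1, 26.6 and 34.1 RPM, and miR-93 of the Mcm7 locus, named after its values were seen, was the 1 that rose, from 492 to 929 RPM on average. All 3 called names of the 5 in the miR-7 list were lower. miR-7b was at 2.91, 3.6 and 5.62 against 62, 123 and 105 RPM and miR-7a at 53.8, 56.5 and 85.5 against 133, 300.4 and 266 RPM.

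In the miR-26 list 3 of 5 were lower, 2 of them star arms under 1 RPM on average in both groups. The list of miR-34 and miR-449 had 4 lower and 1 higher of 6, and the 1 that rose, miR-34a, held nearly all of its reads. The list of miR-99, miR-100 and miR-125 was split, with 3 higher and 5 lower of 11. miR-99a was 2.87-fold lower, at 995, 1308 and 1003 against 3137, 3464 and 2838 RPM. In the list of miR-28, miR-151 and miR-708, 3 of 6 were higher and 1 lower. miR-28* was at 44.1, 48.8 and 55.9 against 4.27, 2.42 and 3.78 RPM, miR-151-5p was 2.88-fold higher, and miR-708 was 2.66-fold lower. The 3 names of the miR-183 cluster and miR-200 list came to at most 3.88 RPM in sum in the 6 libraries, and none was called. The list of miR-10 and miR-196 was not analysed here. Wherever a list is said to have none in a direction, limma gave 0 names in it at an unadjusted p under 0.05 as well, and edgeR and DESeq2 on recovered reads called 0.

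The imprinted Dlk1-Dio3 region on chromosome 12 holds a proximal group of miRNAs around Rtl1 and Meg3 and a long distal cluster. Of 25 proximal names 9 (36%) were higher in Purkinje cells and 6 (24%) lower, beside 24.5% and 32.6% of all names, with a median log2 change of 0.17. Beside miR-433, miR-770-5p, which lies within Meg3, was at 852, 780.4 and 902 against 170.3, 213 and 274 RPM (3.92-fold higher). miR-341 was at 2234, 2919.7 and 4446 against 720.4, 669.6 and 1092 RPM (3.8-fold higher), with a wide spread in Purkinje cells. miR-127, named after its values were seen, was lower, at 1572, 1650.0 and 2187 against 3779.5, 4715 and 4017 RPM.

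In the distal cluster 10 of 68 names (14.7%) were higher and 23 (33.8%) lower, the latter close to the 32.6% of all names, and 6 were higher without Camk2a replicate 1. The median log2 change was -0.26. The summed level was 3.4% to 3.92% of reads in Purkinje cells and 5.46% to 6.75% in Camk2a neurons. miR-487b was 5.87-fold lower, at 387, 477 and 335 against 1945, 2832 and 2274 RPM. miR-369-3p, named after its values were seen, was the most abundant name to fall, from 12435 to 3651 RPM on average. The proximal sum, at 2.44% to 2.9% in Purkinje cells and 1.56% to 1.69% in Camk2a neurons, went the opposite way to the distal sum. Most of the proximal rise was miR-433, at 10867 against 1876 RPM on average. The rises of miR-433 and miR-341 together were larger than that of the sum, so the other proximal names did not rise as a whole.

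The Sfmbt2 intron cluster, a repeat-rich group active in placenta, had 15 of 47 names (31.9%) higher, beside 24.5% of all names, and none lower. Its summed level was 0.0126% to 0.0213% of reads in Purkinje cells and 0.00651% to 0.00866% in Camk2a neurons. Several of its names share sequence and have identical values, so the count is not of separate signals. Without Purkinje replicate 1 it was 5 higher and 1 lower, and without Purkinje replicate 2 it was 8 higher and 2 lower. miR-669c was at 41.2, 17.2 and 34.6 against 6.79, 7.64 and 8.23 RPM.

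The choice of arm differed as well. In 27 of 100 hairpins with reads from both arms (27%), the ratio of the less to the more abundant arm differed between the groups, 11 higher and 16 lower in Purkinje cells. The hairpin of miR-485 changed most, and its minor arm here was the strand without the star. The share of that strand was 1.17, 1.22 and 4.35% in the Purkinje libraries and 28.7, 35.9 and 34.5% in the Camk2a libraries (log2 ratio change -4.61 ± 0.61 (SE), adjusted p = 1.86e-05). For miR-409 the share of the 5p arm was 36.3, 26.6 and 21.1% in the Purkinje libraries and 7.2, 8.52 and 8.23% in the Camk2a libraries (2.14 ± 0.26 (SE), adjusted p = 1.41e-05). The minor arm of miR-431 held 54.9, 54.3 and 59.8% in the Purkinje libraries and 27, 23.6 and 27.6% in the Camk2a libraries (1.87 ± 0.36 (SE), adjusted p = 6.15e-04), so that its star strand was the more abundant in Purkinje cells and the other strand in Camk2a neurons.

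Among the other hairpins with the largest changes, the minor arm share was lower in Purkinje cells for miR-219, miR-324, miR-544 and miR-34a and higher for miR-28, miR-300 and miR-374. For miR-324 it was 0.995, 0.585 and 0.593% in the Purkinje libraries and 6.54, 7.07 and 4.33% in the Camk2a libraries (-3.10 ± 0.40 (SE), adjusted p = 1.86e-05). For miR-300 it was 9.44, 7.77 and 12.3% in the Purkinje libraries and 2.26, 3.02 and 3.63% in the Camk2a libraries (1.83 ± 0.27 (SE), adjusted p = 6.47e-05). The change of miR-28 was not called without Camk2a replicate 2 (adjusted p = 0.065). miR-9, whose arms are both abundant, was taken up after its values were seen. The share of miR-9* was 12.5, 11.4 and 13.2% in the Purkinje libraries and 23.5, 21.9 and 23.7% in the Camk2a libraries (-1.09 ± 0.20 (SE), adjusted p = 5.20e-04).

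miRNAs of other cell types were read as a check of the precipitated cells. The 2 defining oligodendrocyte miRNAs were higher in the Purkinje libraries. miR-338-3p, from an intron of Aatk, was at 3071, 2619 and 3149.8 against 614, 617 and 743 RPM (log2 change 2.16 ± 0.17 (SE), adjusted p = 6.05e-10), and miR-219-5p at 80.5, 63.7 and 36.4 against 1.55, 1.72 and 2.37 RPM (log2 change 4.88 ± 0.34 (SE), adjusted p = 1.30e-10). Of the 5 names of the list 3 were higher and none lower. Their sum was 0.274% to 0.325% of reads in Purkinje libraries and 0.336% to 0.356% in whole cerebellum, and 0.0667% to 0.0799% in Camk2a libraries and 0.216% to 0.34% in whole neocortex. In both cell classes most of this sum was miR-338-3p, at 2946 RPM in Purkinje and 658 RPM in Camk2a libraries on average. The other arm of its hairpin, miR-338-5p, named after its values were seen, was not called, at 62.6 against 52.9 RPM on average. Whether these reads came from oligodendrocyte material, and the part of such material in the other differences, was not tested.

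The blood and microglia list had 4 of 12 names (33.3%) higher, beside 24.5% of all names, and 1 lower. It held 0.288% to 0.335% of reads in whole cerebellum and 0.194% to 0.42% in whole neocortex, above the cell class of each region. Its sum was 0.128% to 0.159% of reads in Purkinje and 0.0083% to 0.00894% in Camk2a libraries. In the Purkinje libraries most of that sum is miR-486, but not in the Camk2a libraries. miR-451, the most specific red cell miRNA, was at 40.2, 47.2 and 33.1 against 12.4, 9.04 and 8.61 RPM (3.99-fold, adjusted p = 6.80e-06). The other higher names were miR-486, miR-486* and miR-223, the last with 6 reads in each group at unlike depth. The 1 lower name was miR-146a, with 1, 36 and 1 reads in the Purkinje libraries and 355, 480 and 375 in the Camk2a libraries. From the summed reads its Camk2a level was 7.5 times the Purkinje level. Neither arm of miR-142 was called. Among the Purkinje libraries, replicate 2 had the highest value of 4 leukocyte names, with 14.4 RPM of miR-146a, 8.41 of miR-142-5p, 2 of miR-142-3p and 1.2 of miR-223. The last 3 were named after their values were seen. miR-223* and miR-144* were at 0 in all 6 libraries.

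Vascular miRNAs were lower in the Purkinje libraries in 5 of 7 names, with a sum of 0.0329% to 0.0436% of reads against 0.0948% to 0.101%. Endothelial miR-126-3p was at 223, 262 and 230.3 against 663, 722 and 682 RPM and smooth muscle miR-143 at 17.4, 19.2 and 17.8 against 45.9, 58.2 and 45.2 RPM. The count was 3 without Purkinje replicate 1 or 3, or without Camk2a replicate 1 or 2. Of the 6 choroid plexus and ependyma names all 6 were lower, at 0.0011% to 0.00189% of reads in sum against 0.00731% to 0.00994%. The names of miR-34b and miR-34c among them are the same 4 that were lower in the list of miR-34 and miR-449. Of the 6 names 2 were at 0 in all Purkinje libraries. miR-204, from an intron of Trpm3, was at 11.1, 9.21 and 4.44 against 72.7, 50.4 and 78.9 RPM. Set against its own tissue, the vascular sum was far lower in both cell classes, with 0.589% to 0.639% of reads in whole cerebellum and 0.799% to 0.832% in whole neocortex. The choroid and ependyma sum was far lower in Purkinje libraries than in whole cerebellum (0.146% to 0.193%), but in Camk2a libraries it overlapped the range of whole neocortex (0.00974% to 0.0125%).

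Because the cell classes sit in different regions, the change between them was set against that between whole cerebellum and whole neocortex. Those tissues were precipitated with anti-Ago2, 1 tissue a library (n = 3 each), from mice on the same backgrounds as the cells of that region. The antibody is thus the same within each contrast, and the strain the same within each region. The difference of the 2 changes was called in 247 of 522 miRNAs (47.3%), 139 (26.6%) above and 108 (20.7%) below the region change, with a median of 0.28. Counted by call, 101 miRNAs were lower and 45 higher in both Purkinje cells and cerebellum, and 142 were called in neither contrast. In 62 the 2 changes were both called, in opposite directions, and differed from each other.

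Among names that averaged 100 RPM or more in these 4 groups, the cell change exceeded the region change most for miR-133b, at 9.77 between cells and 5.39 between regions (difference 4.38 ± 0.32 (SE), adjusted p = 5.82e-10). miR-138 rose in the cells (2.54) and fell in the tissue (-1.15), a difference of 3.68 ± 0.33 (SE), adjusted p = 1.34e-08. It stood at 2102 ± 461 RPM (SD, n = 3) in whole cerebellum and 4666 ± 1105 RPM (SD, n = 3) in whole neocortex. miR-433 did the same, with 2.55 and -0.69.

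At the same abundance limit, the names with a fall in the cells, a rise in the tissue and the lowest differences were miR-204 (-7.74), miR-497 (-7.63), miR-129-2-3p (-7.44) and miR-195 (-7.31). The log2 change of miR-497 was -3.65 between the cell classes and 3.98 between the tissues. It reached 4676 ± 415 RPM (SD, n = 3) in whole cerebellum, against 26.1 ± 2.64 RPM (SD, n = 3) in the Purkinje libraries. miR-16 too was lower in Purkinje cells than in Camk2a neurons and higher in whole cerebellum than in whole neocortex, with a difference of -4.82. Below the limit some differences were larger, such as miR-1298 (-8.65) and miR-219-3p (7.08), named after their values were seen.

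Some of the strongest cell changes tracked the region more closely. For miR-132* the cell change of -5.30 stood beside a region change of -3.99 (difference -1.31 ± 0.35 (SE), adjusted p = 0.00397), and for miR-212-5p the values were -3.25 and -3.28 (difference 0.03 ± 0.42 (SE), adjusted p = 0.947). miR-34a rose by 2.28 in cells and by 1.75 in tissue (difference 0.54 ± 0.35 (SE), adjusted p = 0.231). By list, 15 of 25 proximal Dlk1-Dio3 names were above the region change and none below, and 25 of 68 distal names above and 3 below, beside 26.6% and 20.7% of all names. In the neuronal list 13 of 25 were below it and 4 above.

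**Figure D4:**
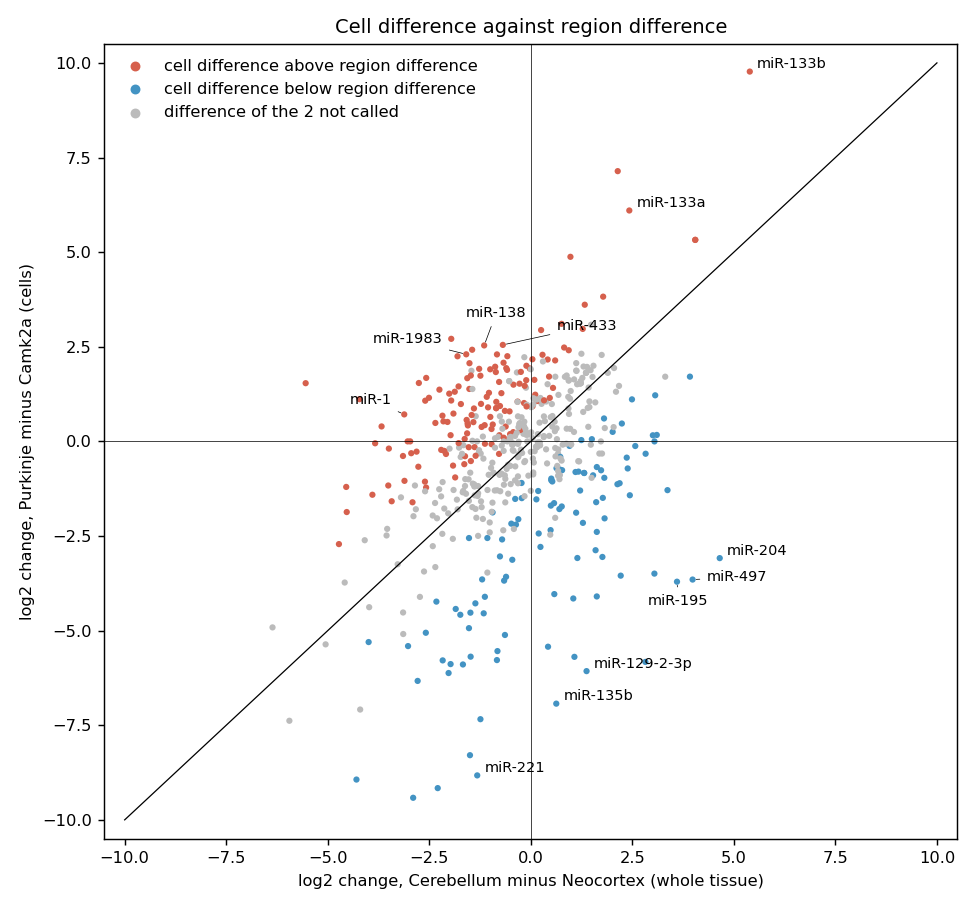
Log2 change between the cell classes (vertical, Purkinje minus Camk2a) against that between whole tissues (horizontal, Cerebellum minus Neocortex) for 522 miRNAs, with the line of equality. Red points lie above the region change by test (139), blue points below (108), grey points were not called, and the 12 labelled names include miR-133b at the upper right and miR-204, miR-497 and miR-195 at the lower right.

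The levels in the remaining neuron classes place the 2 groups. miR-128 was at 9122 ± 3497 RPM (SD, n = 3) in Gad2 neurons, 1888 ± 155 (SD, n = 2) in PV neurons and 2344 ± 283 (SD, n = 2) in SST neurons, so the SST mean lay within the range of the Purkinje libraries and the PV mean just below it. miR-221 was lowest in Purkinje cells, then in PV (42.6 ± 6.87 RPM, SD, n = 2) and SST neurons (66.1 ± 7.16 RPM, SD, n = 2). Gad2 neurons had 210.2 ± 167 RPM (SD, n = 3), a wide spread between libraries. The summed level of the miR-221 and miR-222 list was 0.0126% to 0.0528% of reads in Gad2 neurons. It was 0.00473% to 0.00607% in PV and 0.00749% to 0.00837% in SST neurons. miR-137 did not follow that order, with 2675 ± 447 RPM (SD, n = 2) in SST and 229 ± 23.8 RPM (SD, n = 2) in PV neurons. miR-133b was at 246 ± 17.2 RPM (SD, n = 2) in PV neurons and 3.8 ± 0.953 RPM (SD, n = 2) in SST neurons, both far below the 9139.6 ± 1366 RPM (SD, n = 3) of Purkinje cells.

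**Figure D5:**
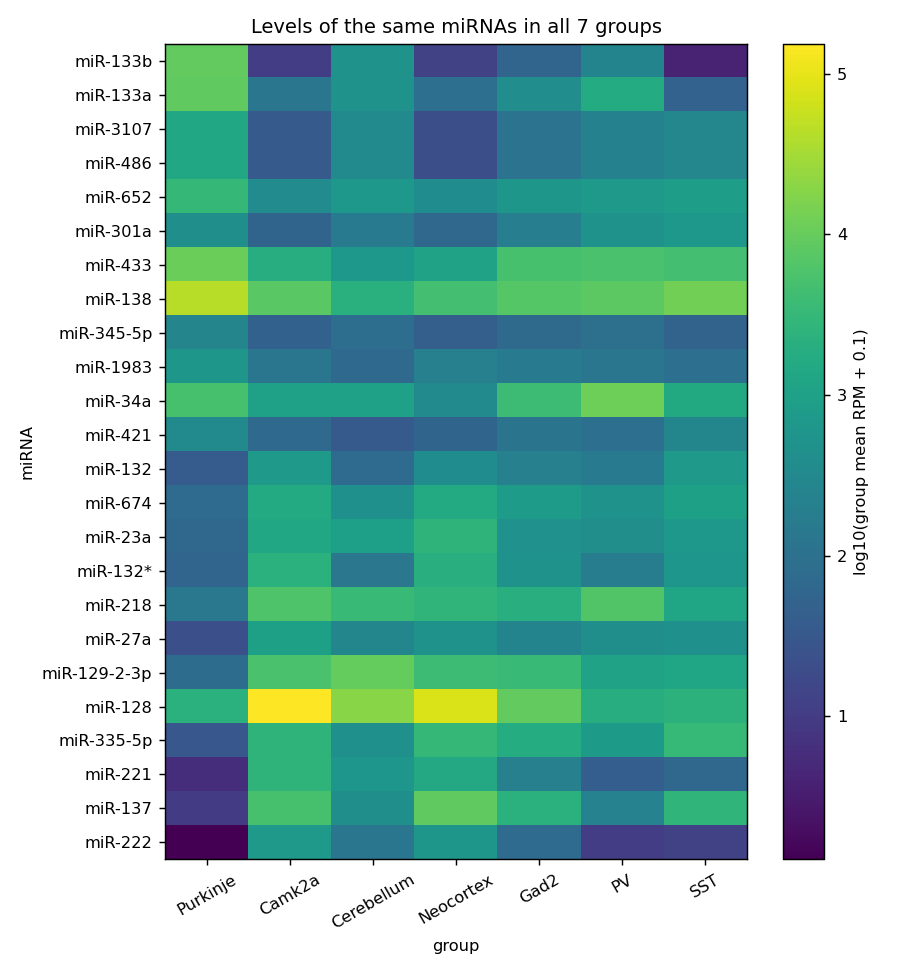
Mean level of the 24 miRNAs with the largest changes in all 7 groups, as log10(RPM + 0.1) from dark (low) to yellow (high), with n = 3 libraries a group and 2 for PV and SST. The Purkinje column is the brightest for miR-133b and miR-138 and the darkest for miR-222 and miR-137, while miR-128 is brightest in Camk2a neurons and whole neocortex.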

How the data were processed

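Small RNA bound to Ago2 was sequenced from 19 libraries, and the deposited signal per miRNA was used. The authors aligned reads to mm9 with Bowtie, per the submitters' processing notes. No source used here gives its version. The deposited file's header calls the values reads per 1000000, but each column sums to 10000000. RPM is the value over 10. Low values in 18 libraries were whole multiples of 1 read in 100% of cases, within 0.1 read, and gave back the reads. No column was without a sample (0).

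The deposited signal was tested as log2(value + 1) in 1 limma 3.58.1 fit of 7 group means over all 19 libraries (R 4.3.3), for 522 names with a value of at least 1 in at least 2 libraries, with Benjamini-Hochberg adjustment, and called at an adjusted p below 0.05. On this scale the change of a low name can be off in either direction. The added 1 shrinks it, but a 0 in a Purkinje library then counts as less than 1 read there, which can overstate a fall. With names at 0 in a whole group set to the 3-read limit, the median of the miR-221 and miR-222 list went from -7.96 to -6.02. That of the choroid and ependyma list went from -2.38 to -1.12. A second contrast was the cell change minus the region change. Seed sums were fitted in the same way, as were log2 ratios of the arms with 0.5 reads added, for hairpins with a mean of at least 5 reads in the minor arm. edgeR 4.0.16 and DESeq2 1.42.0 on recovered reads of 18 libraries (1 neocortex library had too few low values) were alternatives, as were other pseudocounts, filters, TMM scaling, fewer groups and leaving out each library. The scripts were tested on simulated data.

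The members and lists were chosen with earlier results of these data known. Named miRNAs are the 10 most abundant; the 12 highest and 12 lowest called changes with a mean of at least 100 RPM and no overlap; up to 4 called members per list of largest change with at least 10 RPM; the 6 highest and 6 lowest called differences beyond region for names averaging 100 RPM or more in these 4 groups; and the 5 largest arm and seed changes each way. Lists covered neuron-enriched and activity-regulated miRNAs, muscle, the Dlk1-Dio3 and Sfmbt2 clusters, let-7 and the other families given in the results, and oligodendrocyte, vascular, blood and choroid markers. Replicate numbers were not taken as pairs in the main fit. The deviations of same-numbered Purkinje and Camk2a libraries correlated at 0.144, 0.0195 and 0.175 over 290 miRNAs. Those of libraries with different numbers correlated at -0.284 to 0.21. Such values cannot show whether the libraries were paired. Sequences and hairpins came from RefSeq and host genes from GENCODE, both on GRCm38.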

Additional observations from a re-analysis of the deposited data

Results flagged for a closer look

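Among miRNAs that averaged 100 RPM or more in the 2 cell classes and 2 tissues, 12 are given here whose change from Camk2a neurons to Purkinje cells differed from the change from whole neocortex to whole cerebellum, by a limma test of the difference itself. They are the 6 highest and the 6 lowest differences above that limit, and some less abundant names differed more. The values are differences of log2 changes. The cell change was above the region change by 4.38 for miR-133b, 3.89 for miR-1983, 3.83 for miR-1, 3.68 for miR-138, 3.68 for miR-133a and 3.24 for miR-433. It lay below the region change for miR-204 (-7.74), miR-497 (-7.63), miR-135b (-7.56), miR-221 (-7.51), miR-129-2-3p (-7.44) and miR-195 (-7.31). miR-1 stood at 28.1 ± 4.85 RPM in whole cerebellum and 259 ± 102 RPM in whole neocortex (SD, n = 3 each).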

How the results depend on the processing

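The counts of called miRNAs, of differences beyond region, of seed families and of arm ratios stayed within 1.5 times of the main counts. This held in all 165 comparisons, where the total, the higher and the lower count of each alternative run enter separately. Leaving out 1 library at a time gave 271 to 289 called miRNAs, 235 to 250 differences beyond region, 105 to 111 seed families and 23 to 37 arm ratios. DESeq2 moved the median log2 change from -0.12 to 0.03 and the share of calls that are higher from 43.0% to 49.0%. With the replicate number as a block, 295 miRNAs were called, 126 higher and 169 lower, beside 298. As far as the labels say, the replicates share only a number. Keeping only names with a mean of 10 RPM left 319 names and shrank list counts because fewer were tested: 10 neuronal names were then lower of 16, and 2 Sfmbt2 names higher of 6. The vascular list had 3 lower names by DESeq2 and with only the 2 groups in the fit. The miR-26 list had 1 lower name by DESeq2, the muscle list 2 lower names at a pseudocount of 10, and the list of miR-28, miR-151 and miR-708 had 2 lower names with only the 2 groups. Depth limits what can be said of names near 1 RPM in the Purkinje libraries, of which 43 were at 0 in all 3.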
